A study of Drosophila melanogaster with 6 samples.

Results

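The annotation of the Drosophila genome lists non-coding genes and pseudogenes under symbols that begin with CR followed by a number. Of the 620 such CR loci in the deposited table, 256 had a mean RPKM (reads counted on a gene divided by its length in kilobases and by library size) of at least 1 over the 6 libraries and are described here as the CR loci. Whole reads per locus were recovered from the steps of the RPKM values with the help of annotated gene lengths. The other 364 loci were below that level, and 119 of them had 0 reads in every library. The loci nearest the limit were CR43951 (mean RPKM 1.01), CR43792 (1.01) and CR43465 (1.03) inside it and CR43754 (0.996), CR42858 (0.963) and CR44184 (0.961) outside it. The rule used levels averaged over all libraries and no comparison between genotypes.

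Total RNA was sequenced from whole pharate adult males, the stage just before eclosion, 96 to 108 hours after puparium formation, with 2 libraries per genotype and 30 males pooled in each library. The genotypes were wild type males of the yw strain, yw males hemizygous for H3.3BK27R on the X chromosome, and yw males that carried H3.3BK27R and were homozygous for H3.3AK27R on the second chromosome. In these alleles, made with CRISPR at the endogenous genes, lysine 27 of the replication-independent histone H3.3 is replaced by arginine, which cannot be acetylated or methylated at that position. The H3.3B and H3.3A alleles were made in different Cas9 strains, both with y and w mutations. How alike the genotypes are in the rest of the genome, and which mutant line was sequenced, is not given in the sources used here. These groups are called wild type, the single mutant (H3.3B K27R in the plots) and the double mutant below. Whether the 2 libraries of a genotype came from separate cultures is not stated, so the p values measure the spread between these libraries, which may be technical.

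Long non-coding RNAs are transcripts that lack a long conserved reading frame. Some act in chromatin, as do the roX RNAs that guide the dosage compensation complex to the male X chromosome in flies, some are transcribed antisense to a coding gene or from its introns, and for most no function is known. Many of those annotated in flies are most abundant in the testis. Lysine 27 of histone H3 carries the methyl mark of Polycomb silencing and an acetyl mark found at active promoters and enhancers, and the study asked whether RNA levels change when H3.3 can carry neither.

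By their present annotation (BDGP6) the CR loci were mostly what their symbols say. A BDGP6 gene was found for 255 of the 256. Of these, 107 were long non-coding RNAs that overlapped no coding gene, 101 overlapped a coding gene on the other strand, and 32 lay within or across a coding gene on the same strand only. Only 2 were pseudogenes of coding or other genes, 1 was a pseudogene of 18S ribosomal RNA (CR41602) and 4 were other small or structural RNAs. A further 8 are now annotated as protein-coding, among them CR17567, which is now CG46059, so the label non-coding does not hold for those. An exon overlapped an exon of another gene in 86 loci. Whether reads were counted by strand is not given in the sources used here, so reads of those loci cannot be told apart from reads of the gene they overlap.

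The CR loci were short and sparsely read. Their median length was 724 bases, against 1772 for all 11304 genes tested, and their median mean RPKM was 2.85, against 9.39. The median locus had 3.83 reads per library, against 29.8 for all genes tested, and 89 of the loci had 0 reads in at least 1 library. Only 61 loci had a mean of at least 10 reads. Reads on all genes ranged from 1535941 to 2118264 per library, so that 3 reads on a gene of 1 kb equalled an RPKM of 1.42 to 1.95. Replicates differed by more than 1 on the log2(RPKM + 1) scale for 20.3% of the loci in wild type, 21.9% in the single mutant and 28.9% in the double mutant, against 5.94% to 7.99% of all genes tested.

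A few loci held most of the reads. The 5 loci with the most reads took 71.6% to 75.3% of all reads on CR loci in each library. CR34335 lies in CG32791 on its strand (X chromosome, 3545750 to 3546110, minus strand, BDGP6). Its length inferred from the RPKM steps was 249 bases, shorter than that span. The RPKM of CR34335 was 16413 and 13508 in wild type. It was 9999.9 and 11384 in the single mutant, and 13769 and 12561 in the double mutant. Its reads made up 0.249% to 0.409% of each library. Its level in both single mutant libraries was below that in both wild type libraries, with a difference of -0.48 on the log2(RPKM + 1) scale used for all differences here (standard error 0.16, adjusted p = 0.316), which was not past any threshold. In whole animals, fewer cells of a type and less RNA per cell cannot be told apart.

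Apart from CR40469, none of the other abundant loci described here passed an adjusted p of 0.05 against wild type by limma. CR31451, now named mimi, had an RPKM of 339 to 414 over the 6 libraries, and CR42862, which shares exon sequence with CG33229, had 243 to 292. CR32658, within Ten-a, had 217 to 309, and CR32661 had 218 to 321. CR9284 had 117 to 184, CR42767 had 96.2 to 124, and CR43459, the locus with the fifth most reads, had 46.4 to 52.3. In CR32661, CR9284 and CR42767 both wild type libraries were above all 4 mutant libraries, while in CR42862, CR32658 and CR43459 wild type and mutant libraries overlapped. CR17567, protein-coding in BDGP6, had 274 and 289 in wild type and 156 to 190 in the 4 mutant libraries, a log2 difference of -0.58 in the single mutant (standard error 0.12, adjusted p = 0.215) and -0.71 in the double mutant (standard error 0.12, adjusted p = 0.0760). The 2 wild type values were above all 4 mutant values, but neither comparison passed an adjusted p of 0.05 by limma. CR40469, described next, was among the 10 highest in mean RPKM because of its wild type libraries alone.

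CR40469 was the only CR locus called differentially expressed, with thresholds of 0.01 on the adjusted p and of 1 on the size of the log2 fold change (limma, p values adjusted over all genes tested), and it was called in both mutants. It encodes a long non-coding RNA of 214 bases on the plus strand of the X chromosome (FBgn0058469, 122493 to 122706, BDGP6), and it overlaps no other annotated gene. It had 282 and 422 reads in the wild type libraries, 5 and 4 in the single mutant, and 3 and 4 in the double mutant. Its RPKM was 828 and 931, then 12.2 and 11.7, then 8.38 and 12.2, so that the wild type libraries and the 4 mutant libraries were far apart while the mutant libraries overlapped.

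On the log2(RPKM + 1) scale CR40469 fell by 6.09 in the single mutant (standard error 0.18, adjusted p = 0.000193) and by 6.31 in the double mutant (standard error 0.18, adjusted p = 5.7e-05). Taken over summed reads it was 74.2-fold lower in the single mutant (95% exact interval 38.9 to 163) and 87.0-fold lower in the double mutant (42.0 to 217). These intervals cover counting error only. Between the mutants the difference was -0.22 (standard error 0.18, 95% interval -0.65 to 0.21, adjusted p = 0.685), on 3 to 5 reads per library, too few to show that they were alike. The locus was no longer called in the single mutant without either library of wild type or of the single mutant, and the adjusted p then reached 0.0568 at most. In the double mutant the call was lost without either wild type library, with an adjusted p of 0.0189 at most. The call was kept without either of the double mutant libraries.

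None of the genes tested around CR40469 passed the test. Over the 14 genes tested within 200 kb, the differences from wild type ran from -0.61 to 0.27 in the single mutant and from -0.76 to 0.44 in the double mutant, with medians of -0.11 and -0.16. None of the 14 had an adjusted p below 0.05 by limma or with voom weights, a limma fit to the recovered reads weighted by their precision. At an unadjusted p below 0.05 there was 1 in the single mutant and 0 in the double mutant by limma, and 1 in each with voom weights. In this window only CR40469 itself passed the test. The H3.3BK27R allele is on the same chromosome, and a sequence difference between the wild type and mutant X chromosomes at CR40469 cannot be told apart from an effect of the allele in these files.

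**Figure D1:**
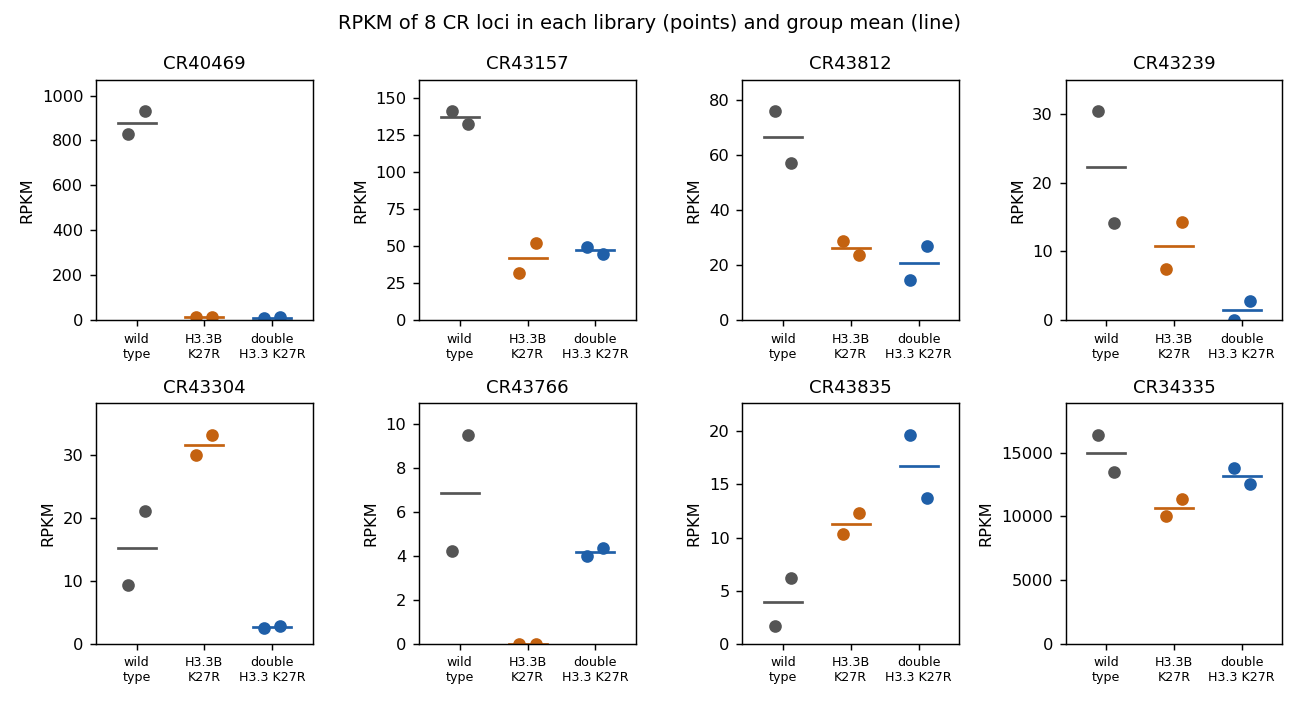
RPKM (linear axes from 0) of 8 CR loci in the 2 libraries of each genotype (points) with the group mean (line). CR40469 falls from 828 and 931 in wild type to between 8.38 and 12.2 in the 4 mutant libraries, CR43304 is lowest in the double mutant, and CR43766 is at 0 in both single mutant libraries.

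CR43157, a long non-coding RNA of 409 bases on the X chromosome (FBgn0262687, 11919125 to 11919657, minus strand, BDGP6), was the other locus at an adjusted p below 0.05 against wild type. It had 92 and 115 reads in wild type, 25 and 34 in the single mutant, and 34 and 28 in the double mutant, so that the 4 mutant libraries overlapped each other and all lay below both wild type libraries. It fell by 1.52 in the double mutant (standard error 0.22, adjusted p = 0.0458). In the single mutant the difference was -1.73 (standard error 0.22, adjusted p = 0.0913), which did not pass. Over summed reads it was 3.33-fold lower in the single mutant (95% exact interval 2.48 to 4.52) and 2.89-fold lower in the double mutant (2.17 to 3.90). With voom weights on reads the adjusted p was 0.0170 and 0.00805, and leaving out any library of wild type or of the double mutant took the adjusted p in the double mutant above 0.05, to between 0.190 and 0.253. The adjusted p was also above 0.05 with 0.1 as the pseudocount (0.0522), without the low-value filter (0.0534), with a replicate block (0.114) and without a trend (0.140). Its neighbour CR32661, 447 bases away on the same strand and read more deeply, had 334 and 433 reads in wild type and 219 to 293 in the mutant libraries, with differences of -0.39 and -0.45 (adjusted p = 0.268 and 0.135).

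By limma no other CR locus passed either limit against wild type. At the study's thresholds 1 of 256 loci (0.391%) was called in the single mutant. This was CR40469, the only gene called among all 11304 tested (0.00885%). In the double mutant 1 locus (0.391%) was called, against 15 of all genes tested (0.133%). With DESeq2 at these thresholds the study reported more genes in both mutants, so a locus not called here is not shown to be unchanged. At an adjusted p below 0.05 there was 1 locus in the single mutant (background 0.0619%) and 2 in the double mutant (background 0.832%), which are CR40469 and CR43157. The share of the loci was 0.781% in the double mutant, close to the background. With voom weights 1 locus was called in the single mutant (background 0.0619%) and 2 in the double mutant (0.469%), and 2 (0.159%) and 3 (1.83%) had an adjusted p below 0.05, so that the share of 1.17% in the double mutant was below the background.

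The third locus with voom weights was CR17567 (adjusted p = 0.0355 in the double mutant). With 0.1 as the pseudocount 3 loci had an adjusted p below 0.05 in the double mutant, which were CR40469 and 2 loci named because of that value, CR43422 (adjusted p = 0.0368) and CR43718 (adjusted p = 0.0499). CR43422 had 6 and 5 reads in wild type, 6 and 3 in the single mutant and 0 in both double mutant libraries (adjusted p = 0.0557 with a pseudocount of 1). CR43718 had 2 and 3 reads in wild type, 3 in each single mutant library and 0 in both double mutant libraries (adjusted p = 0.0649 with a pseudocount of 1), and it was also below 0.05 without the low-value filter (0.0495) and without a trend (0.0290). These loci rest on 11 and 5 wild type reads.

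The loci were more often lower than higher in the mutants at a looser limit. At an unadjusted p below 0.05, 40 loci (15.6%) were lower and 10 (3.91%) higher in the single mutant, against 8.14% and 4.22% of all genes tested. In the double mutant 31 loci (12.1%) were lower and 12 (4.69%) higher, against 7.59% and 7.19%. The wild type libraries are shared by these comparisons, which are therefore not separate evidence. With voom weights on reads 30 loci (11.7%) were lower and 8 (3.12%) higher in the single mutant, against 8.23% and 5.26% of all genes tested. In the double mutant 22 (8.59%) were lower and 7 (2.73%) higher in that fit, against 7.59% and 7.56%.

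Among the lower loci with reads enough to describe, CR43812 lies antisense to CG8908 on chromosome arm 2R. It had 35 reads in each wild type library, 16 and 11 in the single mutant, and 7 and 12 in the double mutant, with log2 differences of -1.30 (adjusted p = 0.244) and -1.68 (adjusted p = 0.0790). All 4 mutant libraries were below both wild type libraries. Its exons overlap those of another gene, so its reads are uncertain.

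CR43239, an intergenic locus on 2L, had 34 and 21 reads in wild type, 10 and 16 in the single mutant, and 0 and 3 in the double mutant. Its RPKM in wild type replicate 2 (14.1) was just below that in replicate 2 of the single mutant (14.2), while the double mutant stood apart. The difference in the double mutant was -3.49 (standard error 0.68, adjusted p = 0.0911), or 15.9-fold over summed reads (95% exact interval 5.15 to 79.3). CR44138, antisense to CG9813, had 6 and 29 reads in wild type, 3 and 8 in the single mutant, and 2 in each double mutant library, and its RPKM in the wild type libraries was 7.65 and 27.8.

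CR43766, on the strand opposite to nAcRalpha-30D, a subunit gene of the nicotinic acetylcholine receptor, had 5 and 15 reads in wild type and 5 in each double mutant library. It had 0 reads in both single mutant libraries (adjusted p = 0.121 by limma). With an assumed floor of 3 reads over the group it was 6.32-fold lower than wild type, which is not a lower limit. CR43627 had 13 and 23 reads in wild type, 11 and 2 in the single mutant, and 9 and 13 in the double mutant (single mutant log2 difference -1.27, adjusted p = 0.362). Each of these loci was lower in the single mutant libraries without passing the test.

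Fewer loci were higher in the mutants. CR43835 on the X chromosome had 2 and 10 reads in wild type, 15 in each single mutant library, and 25 and 16 in the double mutant, so that all 4 mutant libraries had more than either wild type library. Its differences were 1.49 (adjusted p = 0.313) and 1.99 (adjusted p = 0.134). CR43279, 4946 bases away on the same strand, had 24 and 48 reads in wild type, 18 and 17 in the single mutant, and 23 and 31 in the double mutant, so these neighbours were not higher together.

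CR43264, on the strand opposite to CG15765, had an RPKM of 73.1 and 92.0 in wild type and 167 and 108 in the single mutant, and 115 and 92.1 in the double mutant, with a difference of 0.71 in the single mutant (adjusted p = 0.323). CR43605 on 2R, within CG33144 on the other strand, had 4 and 6 reads in wild type, 4 and 3 in the single mutant, and 12 in each double mutant library. It was higher in the double mutant than in wild type by 1.25 (adjusted p = 0.0821) and than in the single mutant by 1.57 (adjusted p = 0.0690). CR42860, antisense to sls, which encodes a giant elastic protein of the sarcomere, and CR44182, antisense to Ppt2, differed from wild type by 0.54 and 0.70 in the double mutant (adjusted p = 0.245 and 0.260). Exons of both overlap exons of their coding gene, and their reads may belong to it. None of the loci higher in a mutant passed an adjusted p of 0.05 against wild type.

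The whole set of CR loci was shifted below wild type by a small amount in both mutants. The median log2 difference over the 256 loci was -0.28 in the single mutant and -0.24 in the double mutant, where the medians of all genes tested were -0.02 and 0.00. In the single mutant 170 loci (66.4%) were below wild type, against 52.1% of all genes tested, and in the double mutant 162 (63.3%), against 50.1%. The middle 50% of the loci ran from -0.70 to 0.14 in the single mutant and from -0.69 to 0.23 in the double mutant. These are descriptions of a set, with no test, and the spread among single loci was wider than the shift.

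The shift was seen in each mutant library. Against the mean of wild type, the median locus was at -0.22 and -0.27 in the single mutant libraries and at -0.23 and -0.17 in the double mutant libraries, while the 2 wild type libraries were at -0.01 and 0.01. The same median over all genes tested stayed between -0.03 and 0.03. The wild type values mirror each other by construction, since the mean of the 2 libraries is the reference. They do not show the spread within wild type. All mutant libraries are set against that same reference, so their values are not separate evidence. The number of loci with 0 reads was 13 and 12 in wild type, 29 and 38 in the single mutant, and 31 and 21 in the double mutant, or 4.69% to 14.8% of the loci. Among the 2498 other genes tested with a mean below 10 reads, the share at 0 ran from 5.80% to 9.21% over the libraries, and from 5.80% to 8.49% in wild type. These sets are not matched in depth. The CR loci include 61 with a mean of at least 10 reads. Below 10 reads the median was 3.17 for the CR loci and 5.0 for all genes tested.

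A locus had to reach its mean RPKM of at least 1 through some group. The group mean was below 1 for 22 of the 256 loci in wild type, 41 in the single mutant and 42 in the double mutant, and 4, 14 and 6 loci had 0 reads in both libraries of those groups. With the 80 loci of a mean RPKM of at least 5 only, the median difference was -0.33 in the single mutant and -0.24 in the double mutant.

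**Figure D2:**
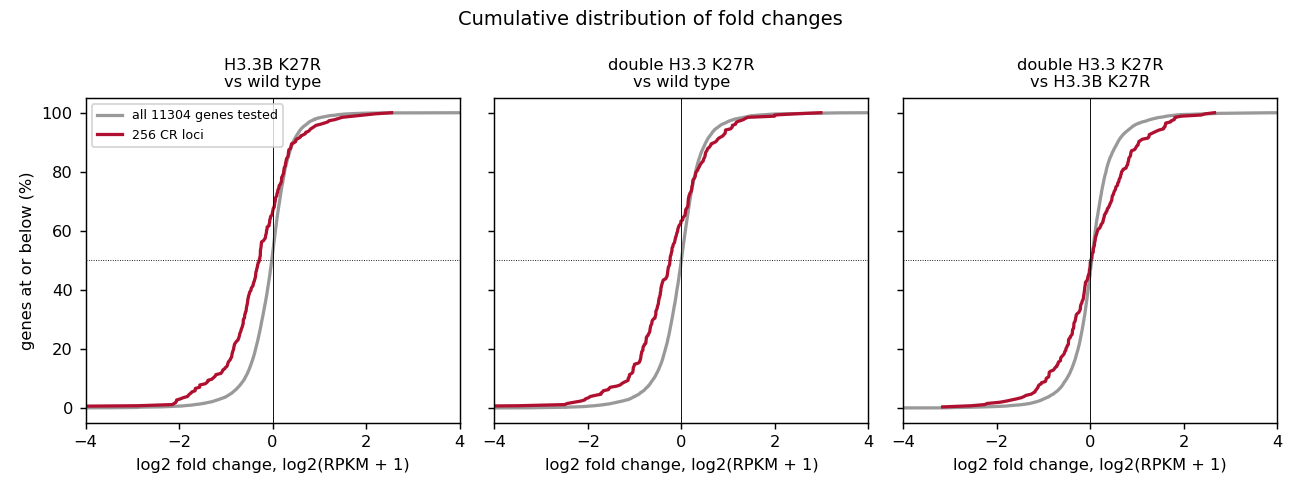
Cumulative share of genes (percent) at or below each log2 fold change on the log2(RPKM + 1) scale, for the 256 CR loci and all 11304 genes tested, in the 3 comparisons. The curve of the CR loci lies to the left of all genes against wild type (medians -0.28 and -0.24) and crosses it near 0 between the mutants. CR40469, at -6.09 and -6.31, is outside the axis.

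The share of reads on the CR loci was also lower in the mutants. It was 0.911% and 0.864% in wild type, 0.671% and 0.725% in the single mutant, and 0.777% and 0.744% in the double mutant, and the wild type libraries did not overlap the others. Without CR34335 it was 0.502% and 0.527%, 0.422% and 0.442%, and 0.434% and 0.431%. Without CR40469 as well, wild type was at 0.485% and 0.507% and the mutant libraries ran from 0.422% to 0.441%. With 2 libraries a group an exact permutation test cannot go below p = 0.333, and none was run on these shares.

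Summed testis markers were also lower in the mutant libraries, with no single marker past the test by limma. Of 14 testis and sperm genes listed, 12 were in the table, none at 0 in all libraries, and 10 were tested. Their summed RPKM was 1708 and 1714 in wild type, 1190 and 1229 in the single mutant, and 1303 and 1150 in the double mutant. The median difference of the 10 was -0.44 and -0.34. By limma 0 of them had an adjusted p below 0.05 in either mutant, while 7 and 6 were lower at an unadjusted p below 0.05, and with voom weights 0 and 3 passed the adjusted limit. Of the 10, 8 were below wild type in the single mutant (differences from -1.04 to 0.19) and 9 in the double mutant (-0.76 to 0.08). Mst87F, a sperm tail protein gene and among the lowest, had an RPKM of 274 and 266 in wild type and 135 to 171 in the mutants. The meiotic arrest genes can and sa, which act in spermatocytes, differed by 0.08 and 0.19 in the single mutant and 0.08 and -0.38 in the double mutant, and twe, a Cdc25 phosphatase gene of meiosis, by -1.04 and -0.09. bam, which acts in early germ cells, was below an RPKM of 1 in every library. Markers of muscle, neurons and eye had medians between -0.12 and 0.01 in both mutants, and yolk and chorion markers summed to at most 3.17 RPKM in any library. The 6 accessory gland markers had medians of -0.34 and -0.59 and summed to 1518 in wild type replicate 1 and to 521 to 891 in the other 5 libraries. The 3 fat body markers tested had medians of 0.12 and 0.62 and summed to 3980 and 4995 in the double mutant and 2642 to 3360 in the other 4. The part of RNA from any of these tissues in the lower level of the CR loci was not tested.

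**Figure D3:**
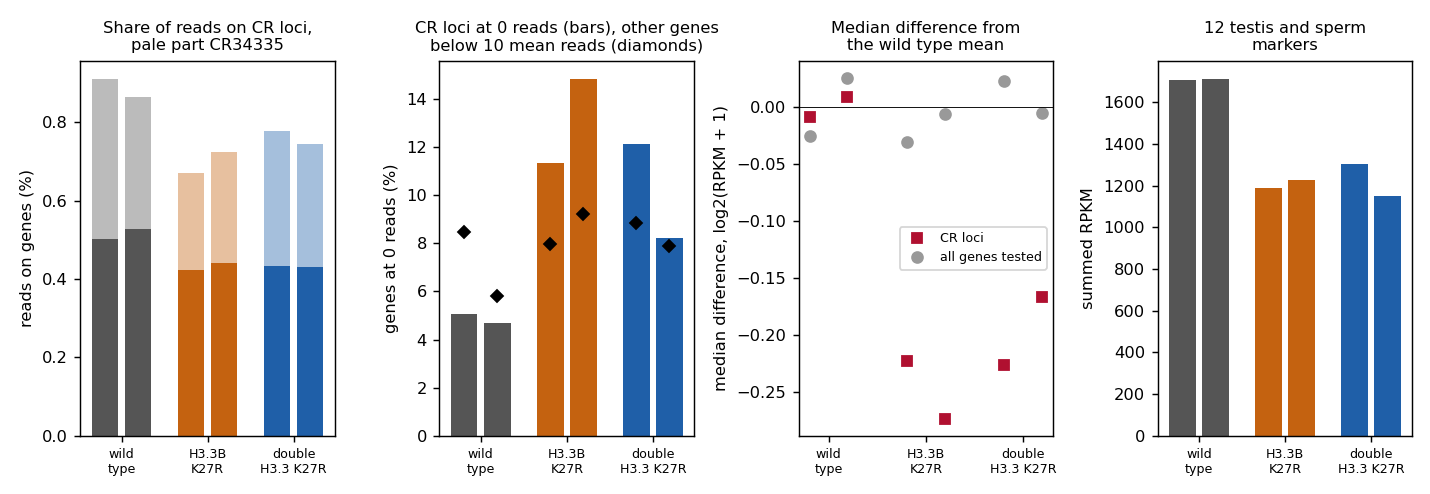
From left to right, for the 2 libraries of each genotype: percent of reads on genes that fell on the CR loci with the part on CR34335 pale, percent of CR loci at 0 reads (bars) and of other genes below 10 mean reads at 0 (diamonds), the median difference from the wild type mean on the log2(RPKM + 1) scale for CR loci (squares) and all genes tested (circles), and the summed RPKM of 12 testis and sperm markers. The wild type libraries have the highest share of reads on CR loci (0.911% and 0.864%), the fewest loci at 0 and the highest testis markers. The bars of loci at 0 hold CR loci of all depths, the diamonds only genes below 10 mean reads. The wild type points of the median difference mirror each other because the mean of these 2 libraries is the reference.

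The shift was broad over classes of loci and uneven over chromosome arms. The median was -0.34 in the single mutant and -0.28 in the double mutant for the 107 loci that overlap no coding gene, and -0.27 and -0.29 for the 101 with a coding gene on the other strand. It was -0.30 and -0.13 for the 32 within a coding gene on the same strand, and -0.15 and -0.25 for the 8 that are now protein-coding. These class medians were below 0 in both mutants. The 4 small RNAs had -0.01 and 0.11 and the 2 pseudogenes 0.49 and 0.37, on too few loci to describe further.

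By arm, the 66 loci on 2L had medians of -0.51 and -0.51, where all genes tested on 2L had -0.05 and -0.04. The 46 loci on 3L had -0.13 and -0.10, the 39 on 2R had -0.27 and -0.28, and the 61 on 3R had -0.28 and -0.25. The 34 loci on the X chromosome had -0.26 in the single mutant and -0.01 in the double mutant, where all genes tested on the X had 0.04 and 0.06. The 9 loci on chromosome 4 had 0.09 and -0.07. No test between arms was run, and the quartiles of the arms overlapped.

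The shift was not limited to loci with the fewest reads. The 61 loci with a mean of at least 10 reads had medians of -0.24 and -0.14, against -0.01 and 0.01 for the 8611 genes tested at that depth, and 70.5% and 62.3% of them were below wild type. The 195 loci with fewer reads had -0.34 and -0.30, against -0.07 and -0.04 for the 2693 genes tested below 10 reads.

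**Figure D4:**
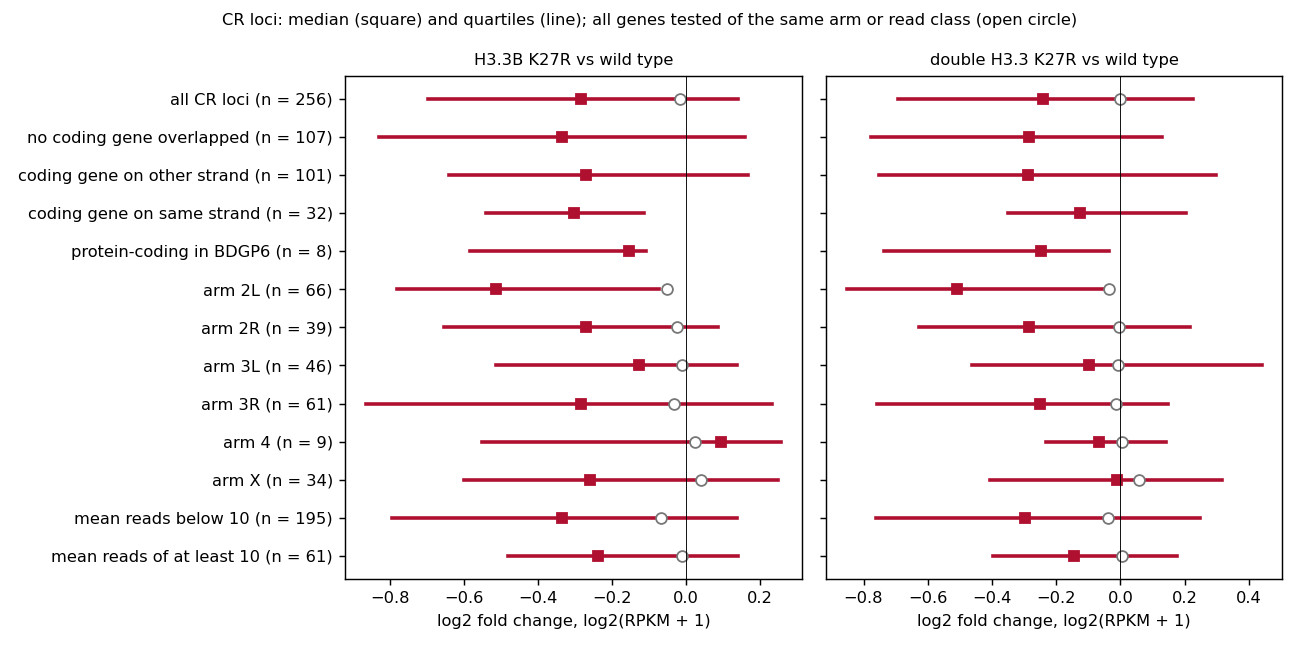
Median (square) and quartiles (line) of the log2 fold change on the log2(RPKM + 1) scale for CR loci by class, chromosome arm and mean reads, in the single mutant and the double mutant against wild type, with the median of all genes tested of the same arm or read class (open circle). The squares lie left of the circles except for chromosome 4 in the single mutant, and 2L is the lowest arm at -0.51.

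The coding genes that the CR loci overlap had medians near 0 in both mutants. For 94 pairs on opposite strands the median difference of the CR locus was -0.33 in the single mutant and -0.45 in the double mutant, and that of the coding gene was 0.05 and 0.07. For 34 pairs on the same strand the CR locus had -0.27 and 0.05 and the coding gene 0.02 and 0.05. Only loci with a tested coding gene enter, each once for every such gene (89 loci on opposite strands, 33 on the same strand). These medians therefore differ from those of the classes. Of the 128 coding genes in all pairs, with 1 gene counted once for each locus it overlaps, 56 were below wild type in the single mutant and 54 in the double mutant. In pairs on opposite strands whose CR locus was below wild type, the coding gene was below it too in 30 of 64 in the single mutant and 24 of 56 in the double mutant, and in pairs on the same strand in 11 of 25 and 8 of 16.

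Between the mutants the CR loci were not shifted, and single loci differed. The median difference of the double mutant from the single mutant was 0.02, against 0.03 for all genes tested. No locus was called at the study's thresholds by limma (background 0.0619%) or with voom weights (background 0.345%). At an adjusted p below 0.05 there were 2 (0.781% of the loci, background 0.31%), and 1 with voom weights (0.391%, background 1.3%). At an unadjusted p below 0.05, 26 were higher (10.2%, background 7.42%) and 13 lower (5.08%, background 5.06%) in the double mutant, and with voom weights 22 (background 7.54%) and 8 (background 5.4%).

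CR43304, an intergenic long non-coding RNA on 2L (FBgn0262996, 17541854 to 17542383, plus strand, BDGP6), was lower in the double mutant than in the single mutant. It had 7 and 21 reads in wild type, 27 and 25 in the single mutant, and 2 in each double mutant library. The difference between the mutants was -3.16 (standard error 0.35, adjusted p = 0.0350), or 11.9-fold over summed reads (95% exact interval 4.36 to 45.2). Against wild type it was 1.11 in the single mutant (adjusted p = 0.313) and -2.05 in the double mutant (adjusted p = 0.0734), so that the mutants lay on opposite sides of wild type, with neither difference from wild type past the limit. Leaving out any library of either mutant took the adjusted p between the mutants to between 0.166 and 0.276, and it was 0.0736 with a replicate block and 0.0985 without a trend.

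CR43451, an intergenic locus on 3R (FBgn0263405, 19288357 to 19289296, plus strand, BDGP6), was the other locus at an adjusted p below 0.05 between the mutants and is named because of that value. It had 4 and 8 reads in wild type, 0 in both single mutant libraries and 8 in each double mutant library. The adjusted p between the mutants was 0.0430 by limma. With an assumed floor of 3 reads over the single mutant group it was 5.85-fold higher in the double mutant, which is not a lower limit. Without any 1 library of the 6 its adjusted p was between 0.116 and 0.245, and it was 0.132 with a replicate block, 0.0501 with voom weights and 0.109 with only the mutants in the fit. Both loci rest on few reads.

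The loci below are the others with the largest differences between the mutants among those with at least 10 mean reads in the higher mutant, an unadjusted p below 0.05 and mutants that did not overlap. None had an adjusted p below 0.05 by limma. Larger differences were found among loci with fewer reads, such as CR43766 (2.37, adjusted p = 0.0925, and 0.0378 with 0.1 as the pseudocount). CR43239 differed by -2.54 in the double mutant (adjusted p = 0.207), on the reads given above. CR43847 had 7 and 3 reads in the single mutant and 15 and 10 in the double mutant (1.26, adjusted p = 0.179), and CR33218, within phl, the fly Raf kinase gene, had 31 and 13 against 38 and 29 (0.82, adjusted p = 0.378). CR43701, a small non-coding RNA of 93 bases in stet, had 13 and 9 against 5 and 8 (-0.63, adjusted p = 0.383), and CR43939 had 56 and 43 against 39 and 31 (-0.36, adjusted p = 0.352). CR43279 and CR44182 were higher in the double mutant by 0.70 and 1.04 (adjusted p = 0.339 and 0.153).

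A mixed list of named non-coding RNA genes outside the CR symbols is given for context. It is not matched to the CR loci in level. It holds abundant structural RNAs such as RNaseMRP:RNA (RPKM 4057 to 4861) beside genes with few reads. Of 31 listed, 25 were in the table, 3 of them at 0 in all libraries, and 18 were tested. By limma and with voom weights 0 of the 18 had an adjusted p below 0.05 in any of the 3 comparisons, while 2, 3 and 4 had an unadjusted p below 0.05 by limma and 1, 5 and 2 with voom weights. Their median difference was -0.07 in the single mutant and 0.07 in the double mutant, against -0.28 and -0.24 for the CR loci. Single genes ran from -2.68 (pncr016:2R) to 1.29 (Uhg8) in the single mutant. In the double mutant they ran from -1.77 (Uhg1) to 1.79 (Uhg8). roX1, a roX RNA of dosage compensation, had an RPKM of 175 and 211 in wild type, 158 and 173 in the single mutant, and 177 and 170 in the double mutant. roX2, the other roX RNA, had 26.0 and 30.5, then 27.7 and 38.1, then 32.1 and 27.9. Their ranges in the mutants overlapped those in wild type, except for roX1 in the single mutant, where both values were below both wild type values (log2 difference -0.22, adjusted p = 0.517).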

How the data were processed

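RNA-seq libraries from whole pharate adult males were assigned to genotype by their labels. Per the authors' methods and notes, reads were aligned with STAR 2.5.2b to a modified dm3 genome and counted with Subread 1.28.1. The RPKM values were deposited by the authors for 15115 genes and were made with their own R script. The deposited DESeq2 1.18.1 results hold the authors' own comparisons and were not used. The authors had joined the technical runs of the first single mutant library.

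Whole reads were recovered from the RPKM steps of each library (73342 values above 0, all within 0.003 of a whole number). Gene lengths were chosen to make the values whole, so this closeness is no check of the reads. The steps fix reads only up to a common multiple, which was set with the BDGP6 length where a gene was matched. For 197 of the 256 CR loci the length used equalled the BDGP6 length. Reads that all share a factor, as in CR43451 and CR43766, rest on that choice of length. All 256 CR loci were among the 11304 genes that reached a mean RPKM of 1, which were tested with limma 3.58.1 in R 4.3.3 (eBayes with a trend) on log2(RPKM + 1), a scale that understates changes of low genes. The 3 genotypes were fitted together with no covariate, and p values were adjusted by the Benjamini-Hochberg method. The fit was tested on simulated data, where only genes read more deeply than most CR loci were changed. That test does not cover loci with few reads. Classes and coordinates came from BDGP6, a different build from that of the counts.

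The loci and lists were chosen with earlier results of these data known. Loci named are CR40469, loci called in a comparison, the 5 largest increases and decreases per comparison (unadjusted p below 0.05, groups apart, at least 10 mean reads in the higher group), the 10 highest in RPKM and the 5 with most reads. CR43451, CR43422, CR43718 and CR41602 were named after their values or classes were seen. Alternatives were another pseudocount, filter, normalization, test, replicate block and each library left out.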

Additional observations from a re-analysis of the deposited data

How the results depend on the processing

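In fits without 1 library the lone sample of that genotype is assumed to vary like the others. CR40469 kept its direction in all 16 alternatives of each comparison, from -6.17 to -6.00 in the single mutant and from -6.55 to -6.06 in the double mutant without 1 library and within -6.19 to -6.03 and -6.43 to -6.26 in the others. It lost an adjusted p of 0.05 only without wild type replicate 2 in the single mutant (-6.00). The number of CR loci called ran from 0 to 1 in both mutants over the fits without 1 library, and with voom weights it was 2 in the double mutant, where 53 genes were called in place of 15. At an adjusted p below 0.05 it was 0 to 1 in the single mutant, 1 to 2 in the double mutant and 0 to 1 between the mutants without 1 library. With voom weights these counts were 2, 3 and 1 (0.781%, 1.17% and 0.391% of the loci, against 0.159%, 1.83% and 1.3% of all genes tested), and with a pseudocount of 0.1 they were 1, 3 and 3. Between the mutants the count was 1 with a mean RPKM of at least 5 and 1 with only the 2 genotypes compared.

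Deviations of same-numbered libraries correlated at 0.02 (wild type and single mutant), 0.01 (both mutants) and -0.21 (wild type and double mutant). None was clearly positive, so no shared deviation of same-numbered libraries was seen. Whether same-numbered libraries were prepared together cannot be told from these values. Since deviations in a group of 2 are mirrored, -0.21 means that wild type and double mutant libraries of unlike number deviated together weakly. With a replicate block the counts at an adjusted p below 0.05 were 1 in the single mutant, 1 in the double mutant and 0 between the mutants, and with the double mutant numbers crossed they were 1, 2 and 1.

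The median difference of the CR loci from wild type stayed below 0 in every alternative. In the single mutant it was -0.39 with a pseudocount of 0.1, -0.33 with a mean RPKM of at least 5, -0.21 with quantile normalization, -0.23 with median centring and -0.34 with voom weights, and it ran from -0.33 to -0.22 without 1 library. In the double mutant it was -0.29 with a pseudocount of 0.1 and ran from -0.24 to -0.17 without 1 library. Between the mutants it was -0.035 with median centring and ran from -0.0085 to 0.13 without 1 library. The crossed block and the alternatives for the medians, CR43157, CR43304 and CR43451 were chosen after seeing the data.

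Without CR34335 the mean share of reads on the CR loci was 0.515% in wild type, 0.432% in the single mutant and 0.433% in the double mutant, in place of 0.887%, 0.698% and 0.761%. Median reads of 3.83 per locus and library limit what could be shown for single loci.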
